A study of Mus musculus with 7 samples.

Results

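The genes of fatty acid uptake and oxidation were followed in the hearts of mice with a cardiac Nrf2 transgene. They were chosen by name, as 39 symbols that cover the route from the blood to the mitochondrial flavoproteins together with its regulators, and all 39 were found among the 14641 genes of the count table. RNA was sequenced from whole heart lysates of 4 non-transgenic (NTG) and 3 mNrf2-TG male mice on the C57BL/6J background. The mNrf2-TG mice carried a transgene for full-length Nrf2, driven by the cardiomyocyte promoter αMHC, and the NTG mice were their littermates without it. The labels give 6 months as the age of the mNrf2-TG mice and no age for the NTG mice. The design text gives 7 to 8 months for both groups, and the methods a range that starts at 6. The labels list every heart as a separate sample, and no further treatment or allele is given for either group. The question put to these genes was whether their mRNA differed between mNrf2-TG and NTG hearts.

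Fatty acids are the main fuel of the adult heart. They are released from lipoproteins by lipoprotein lipase at the vessel wall, taken up with the help of Cd36, bound by cytosolic fatty acid-binding proteins and joined to coenzyme A by the Acsl enzymes. The carnitine shuttle carries the acyl groups into the mitochondria, where each turn of beta-oxidation removes an acetyl-CoA by dehydrogenation, hydration, a second dehydrogenation and thiolysis, and passes electrons to the electron transfer flavoprotein. Much of this programme is driven by PPARα with its coactivator PGC-1α and by the orphan receptor ERRα.

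Libraries held between 6534684 and 8405857 counts on the listed genes. Counts of Nfe2l2, the gene of Nrf2, ran from 729 to 1392 in the NTG hearts and from 10912 to 12839 in the mNrf2-TG hearts, where reads of the transgene are included (Log2FC 3.36). The summed level of 14 cardiomyocyte markers was 907994 to 963236 normalized counts in the NTG hearts and 791079 to 820527 in mNrf2-TG, with 5 of the 14 called lower. Among endothelial markers 5 of 14 were called lower and 1 higher, with sums of 15955 to 16872 against 12721 to 13408. Macrophage markers were called higher in 9 of 14 cases (sums of 2704 to 3453 against 4275 to 5921) and fibroblast markers in 6 of 10 (9759 to 12694 against 13929 to 14755). In the order given, 35.7%, 42.9%, 64.3% and 60.0% of the markers were called, against 17.2% of all genes. The 4 adipocyte markers in the table summed to 0 to 27 in NTG and 1 to 24 in mNrf2-TG, at or near 0. In whole tissue, fewer cells of a type and less RNA per cell cannot be told apart.

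Of the 39 genes, 8 were lower in mNrf2-TG hearts and 2 were higher at an adjusted p under 0.05, by edgeR's quasi-likelihood test with Benjamini-Hochberg adjustment over all 14637 genes tested. The 8 lower genes were the regulators Ppargc1a and Ppara, the activating enzymes Acsl6 and Acsl1, the lipase gene Lpl, the binding protein gene Fabp3 and the oxidation genes Hadh and Hadha. The 2 higher genes, Acads and Echs1, both encode enzymes of beta-oxidation. This is 20.5% lower and 5.13% higher, where the whole table had 8.73% lower and 8.48% higher, and 25.6% called in either direction against 17.2%. Leaving out 1 library moved the 8 lower genes to 3 without mNrf2-TG 18 (7.69%, against 5.11% of all genes), to 5 without NTG 1, NTG 2 or mNrf2-TG 19 (12.8%, against 5.35% to 5.47%) and to 12 without NTG 3 (30.8%, against 10.1%). Values did not overlap between the groups for 12 of the 39 on the lower side (30.8%) and for 5 on the higher side (12.8%), against 14.7% and 15.0% of all genes. The median Log2FC was -0.10 over the 39 and 0.00 over all genes. Changes were small: only Ppargc1a passed a 2-fold change with an unadjusted p under 0.05, a mark that 5.65% of all genes passed. Together the 39 genes took 3.14% to 3.59% of the listed counts in NTG hearts and 3.02% to 3.24% in mNrf2-TG hearts.

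**Figure D1:**
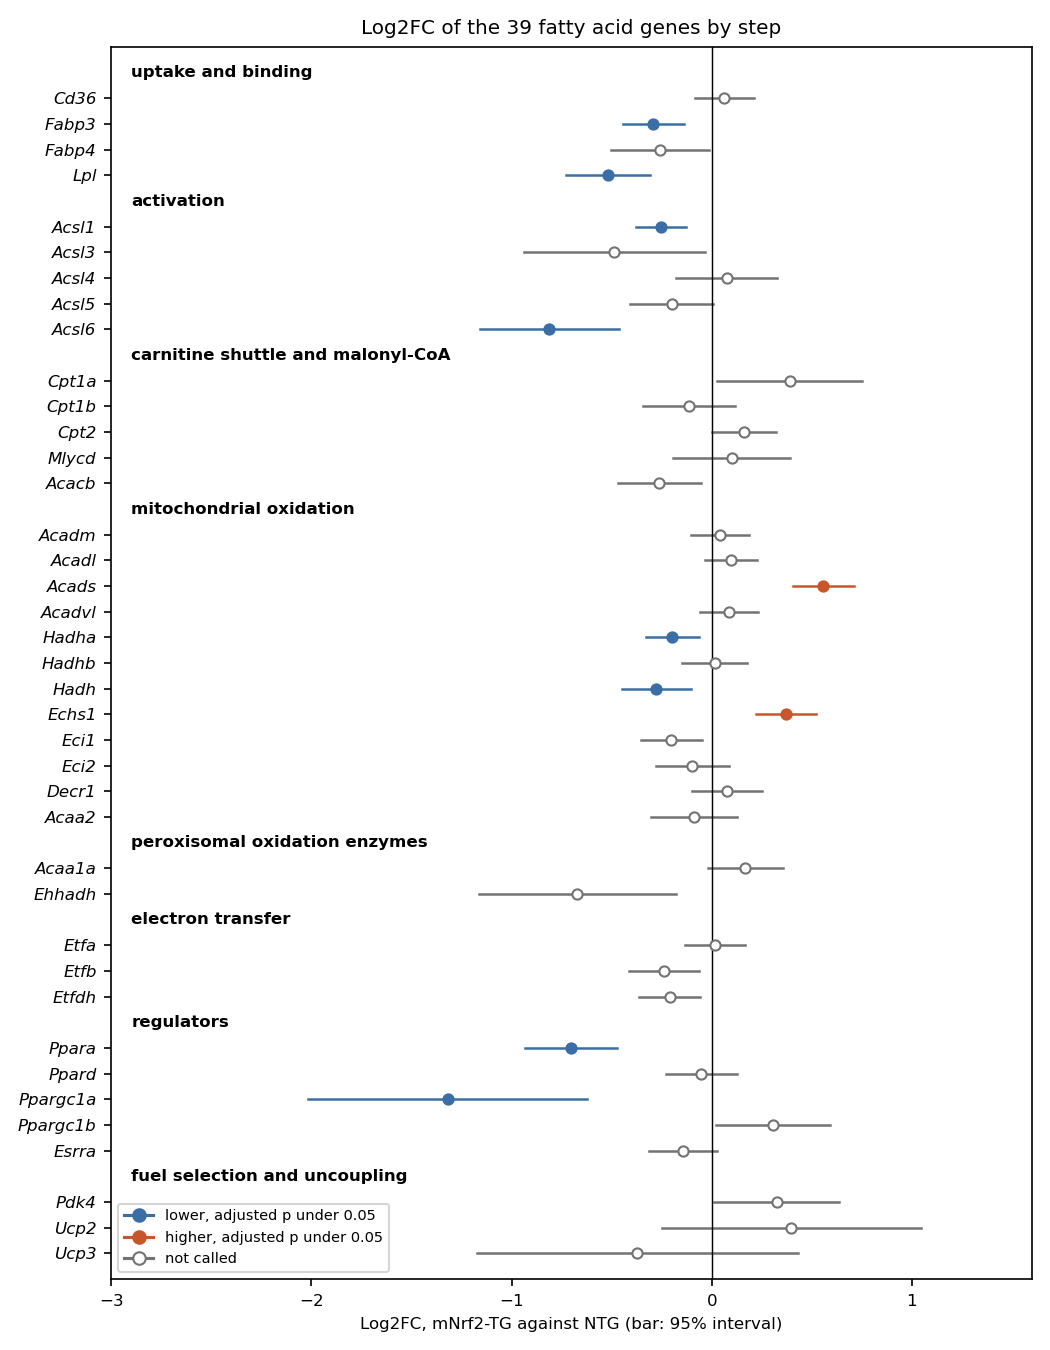
Log2FC of each of the 39 genes, mNrf2-TG against NTG, with its 95% interval as a bar, grouped by step from uptake to uncoupling. Filled blue points are the 8 genes called lower, filled orange points the 2 called higher and open points the 29 not called; Ppargc1a lies farthest from 0 at -1.32.

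Lpl, which encodes lipoprotein lipase, was lower in mNrf2-TG hearts. It stood at 56882, 53945, 42306 and 49844 normalized counts in NTG 1 to 4 and at 36252, 34305 and 35776 in mNrf2-TG 17 to 19. Each mNrf2-TG heart was below each NTG heart, and the 3 lay close together. The Log2FC was -0.52 (SE 0.0945, adjusted p = 0.00636), a fall of 30.2%, and the call was made under all 15 alternative settings. Fabp3, the binding protein of heart and muscle, was also lower, with 28148, 28929, 26756 and 31454 normalized counts in NTG and 24265, 22758 and 23628 in mNrf2-TG. Here too the groups did not overlap, at a Log2FC of -0.29 (SE 0.0682, adjusted p = 0.0176). That call was lost without NTG 1 (adjusted p = 0.0504), NTG 2 (0.0522), mNrf2-TG 18 (0.0661) or mNrf2-TG 19 (0.0557). Of the Fabp3 transcript, 29.2% of its 50-base stretches are also in the pseudogene Fabp3-ps1, so its count is uncertain to that extent.

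Cd36, the fatty acid translocase of the plasma membrane, ranged from 21550 to 24532 normalized counts in NTG and from 23175 to 25606 in mNrf2-TG (Log2FC 0.06, 95% interval -0.09 to 0.21). Fabp4, found in endothelial cells and adipocytes, ranged from 4691 to 6716 and from 4467 to 4737 (Log2FC -0.26, adjusted p = 0.138). Both overlapped between the groups. Fabp3 made up 83.6% to 86.7% of the summed length-scaled level of Fabp3 and Fabp4 in NTG and 84.7% to 85.2% in mNrf2-TG, ranges that overlap. Lpl and Fabp3 moved beside a lower summed level of cardiomyocyte markers (Log2 ratio of the group means -0.21), and the part of that difference in these results was not tested. The same holds for the falls of Acsl1, Acsl6, Hadh and Hadha given below.

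Other genes of uptake sit around the lipase, and 2 of the 14 tested were higher and 2 lower. Of the 14, 28.6% were called, against 17.2% of all genes. Angptl4, which encodes a secreted inhibitor of lipoprotein lipase, had 40, 82, 84 and 60 normalized counts in NTG and 206, 300 and 140 in mNrf2-TG. Every mNrf2-TG heart exceeded every NTG heart, at a Log2FC of 1.68 (SE 0.281, adjusted p = 0.00435). Gpihbp1, whose endothelial protein carries the lipase to the capillary lumen, had 710, 723, 909 and 808 in NTG against 439, 517 and 515. The groups were again apart, with a Log2FC of -0.68 (SE 0.105, adjusted p = 0.00292). Endothelial markers as a list were lower as well, with a median Log2FC of -0.27 over 14 genes, and their part in the Gpihbp1 result was not tested. Vldlr, the receptor for very low density lipoprotein, fell by 0.43 on the log2 scale (adjusted p = 0.00568), while Slc27a1, a fatty acid transport protein, rose by 0.42 (adjusted p = 0.00788). All 4 calls were made under each of the 15 alternatives. The median Log2FC of the 14 genes was 0.15.

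Long-chain acyl-CoA synthetases were lower for 2 of the 5 family members (40.0%, against 8.73% of all genes) and higher for none. Acsl1, the main form in heart, had 11900, 12188, 11834 and 12007 normalized counts in NTG, a spread of 1.29% (CV), and 10114, 9683 and 10337 in mNrf2-TG. All mNrf2-TG values lay below all NTG values, at a Log2FC of -0.25 (SE 0.0564, adjusted p = 0.014), and the call was lost without mNrf2-TG 18 (adjusted p = 0.0571). Acsl6, a form best known from the brain, had 117, 106, 129 and 97 normalized counts in NTG and 74, 53 and 64 in mNrf2-TG. It was lower in each mNrf2-TG heart than in any NTG heart, with a Log2FC of -0.81 (SE 0.155, adjusted p = 0.00773), under all 15 alternatives. Acsl3 overlapped between groups (54.0 to 98.6 against 46.3 to 58.1, Log2FC -0.49, adjusted p = 0.13), and its counting error alone was 14.6% at the lowest count of 47. Acsl4 ranged from 128 to 167 in NTG and from 152 to 170 in mNrf2-TG, and Acsl5 from 221 to 228 and from 183 to 219 (Log2FC 0.07 and -0.20, neither called). Per kilobase, Acsl1 held 95.2% to 95.7% of the summed Acsl level in NTG and 95.7% to 95.8% in mNrf2-TG, so the larger relative fall of Acsl6 concerned a minor form. Antisense annotation covers 202 exon bases of Acsl6 (Gm12224) and 1039 of Acsl1 (Gm45244), and the sources used here do not say whether strand was used in counting.

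Promoter sequence is shown for the genes with the largest called changes, because Nrf2 acts through antioxidant response elements and the PPAR and ERR receptors through AGGTCA sites. Sequences are from RefSeq on GRCm38.p6 and run 5′ to 3′ on the gene's strand up to the base before the start. Capitals mark a match on either strand to TGACNNNGC, the core of the antioxidant response element, to AGGTCA, or to the ERR element TNAAGGTCA, which contains AGGTCA. The Acsl6 stretch is chr11:54303574-54303823 (+), Echs1 chr7:140116422-140116521 (-), Acads chr5:115119347-115119446 (-), Ppara chr15:85735676-85735775 (+) and Ppargc1a chr5:51567726-51567825 (-).
Acsl6: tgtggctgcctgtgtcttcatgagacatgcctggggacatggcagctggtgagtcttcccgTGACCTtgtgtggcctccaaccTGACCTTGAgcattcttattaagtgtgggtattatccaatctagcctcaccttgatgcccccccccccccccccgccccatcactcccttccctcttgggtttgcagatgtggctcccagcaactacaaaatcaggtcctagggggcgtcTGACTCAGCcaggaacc
Echs1: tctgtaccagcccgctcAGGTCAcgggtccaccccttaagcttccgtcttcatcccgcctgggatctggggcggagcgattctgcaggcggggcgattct
Acads: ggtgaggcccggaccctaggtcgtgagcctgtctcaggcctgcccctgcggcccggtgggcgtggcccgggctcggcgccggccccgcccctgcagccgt
Ppara: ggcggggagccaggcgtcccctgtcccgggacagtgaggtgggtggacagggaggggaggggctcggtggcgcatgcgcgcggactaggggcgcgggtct
Ppargc1a: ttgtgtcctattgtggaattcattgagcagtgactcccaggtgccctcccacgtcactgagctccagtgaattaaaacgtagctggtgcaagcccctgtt

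In the Acsl6 stretch the antioxidant core reads TGACTCAGC and begins at base -17 from the start. Its AGGTCA sites lie on the opposite strand at -189 and -167, and the second is part of the ERR element TCAAGGTCA. The table lists 3 promoters for Acsl6, and the other 2 held no match. Echs1 holds an AGGTCA site at -83. The stretches of Acads, Ppara and Ppargc1a hold none of these letters. The table had a promoter for 33 of the 39 genes and 36 promoters in all, and Lpl, Fabp4, Cpt1b, Decr1, Acaa2 and Ppargc1b had no entry. In the window from 250 bases before to 50 after the start, the antioxidant core was in 4 of the 36 (Acsl6, Ehhadh, Ppard and Ucp2) and in 12.4% of 32851 promoters. AGGTCA was in 8 of the 36 (Cd36, Acsl6, Cpt1a, Acadm, Acadvl, Echs1, Acacb and Ucp3) and in 16.3% of all. The ERR element was in 1 of the 36 and in 1.28%, and the direct repeat AGGTCANAGGTCA in 0 of the 36 and in 0.0396%. A match describes letters and is not a binding site, and the genes with an antioxidant core had Log2FC values of -0.81, -0.67, -0.05 and 0.40.

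The carnitine shuttle and its malonyl-CoA control had no called gene among 5. Cpt1a, the carnitine palmitoyltransferase of liver that the heart also uses, had 508, 576, 321 and 512 normalized counts in NTG and 673, 609 and 604 in mNrf2-TG. All mNrf2-TG values were above all NTG values, of which NTG 3 was the lowest, but the difference missed the threshold (Log2FC 0.39, SE 0.163, adjusted p = 0.129). Cpt1b, the muscle form, ranged from 167 to 208 in NTG and from 166 to 173 in mNrf2-TG (Log2FC -0.11, 95% interval -0.34 to 0.12). Of the Cpt1b transcript, 78.59% of 50-base stretches are shared with the read-through gene Gm44502, so this count is uncertain. As counted, Cpt1b made up 33.0% to 43.7% of the summed level of both forms per kilobase in NTG. In mNrf2-TG it made up 26.9% to 30.0%, without overlap. Because most Cpt1b stretches are shared, these shares do not show which form is more abundant. The difference in share was not tested, and neither gene was called. Cpt2, the inner-membrane enzyme, ranged from 2147 to 2501 and from 2489 to 2666 (Log2FC 0.16, adjusted p = 0.151). Acacb, which makes malonyl-CoA at the mitochondrion, ranged from 2994 to 3736 and from 2674 to 3123 (Log2FC -0.26, adjusted p = 0.0802) and was called without NTG 3 (adjusted p = 0.0191). Mlycd, which removes malonyl-CoA, ranged from 678 to 982 and from 838 to 1059 (Log2FC 0.10, adjusted p = 0.648).

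Among 23 partners of the shuttle in carnitine and acyl-CoA handling, 6 were higher and 2 lower, or 34.8% called against 17.2% of all genes (median Log2FC 0.08). Slc25a20, the carnitine-acylcarnitine carrier, had 1846, 1743, 1618 and 1686 normalized counts in NTG and 1283, 1242 and 1355 in mNrf2-TG, with no overlap (Log2FC -0.41, SE 0.0711, adjusted p = 0.00483). Acot13, a mitochondrial acyl-CoA thioesterase, ranged from 2619 to 2899 and from 1793 to 1903 (Log2FC -0.56, adjusted p = 0.000716). Both falls were called under all 15 alternatives. On the higher side stood Acot11, another thioesterase (Log2FC 0.74, adjusted p = 0.00931), and Acsm5, a medium-chain synthetase (Log2FC 1.38, adjusted p = 0.0177). The Acsm5 call was lost without NTG 1 (adjusted p = 0.0513), NTG 2 (0.051) or mNrf2-TG 17 (0.0746), while that of Acot11 was always made. Of 10 genes of malonyl-CoA and AMPK, the energy-sensing kinase that inhibits acetyl-CoA carboxylase, 3 were higher and 1 lower (median 0.02). The share called was 40.0%, against 17.2% of all genes. Prkab2, a regulatory subunit of AMPK, had 860, 894, 721 and 638 in NTG against 1763, 1451 and 1491 (Log2FC 1.01, SE 0.121, adjusted p = 0.000764). Prkaa2, its catalytic subunit in muscle, ranged from 2059 to 2403 and from 2791 to 3590 (Log2FC 0.53, adjusted p = 0.00579). In both the mNrf2-TG hearts were all above the NTG hearts. The 1 lower gene was Prkab1, the other beta subunit of AMPK, which had 238, 287, 321 and 312 in NTG and 137, 155 and 247 in mNrf2-TG. Its groups overlapped through NTG 1 and mNrf2-TG 19 (Log2FC -0.68, SE 0.191, adjusted p = 0.0357), and the call was lost without NTG 2 (adjusted p = 0.078), NTG 4 (0.0735), mNrf2-TG 17 (0.122) or mNrf2-TG 18 (0.119).

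Enzymes of mitochondrial beta-oxidation moved in both directions, with 2 of 12 higher, 2 lower and a median Log2FC of 0.03. Of the 12, 33.3% were called, against 17.2% of all genes. Acads, the short-chain acyl-CoA dehydrogenase, had 2155, 1978, 1926 and 1985 normalized counts in NTG and 3065, 2796 and 3021 in mNrf2-TG. The groups were far apart against their spread, with a Log2FC of 0.56 (SE 0.0681, 95% interval 0.41 to 0.71, adjusted p = 0.000843), a rise of 47.2%. Echs1, the short-chain enoyl-CoA hydratase, had 3089, 3003, 3357 and 3067 in NTG and 4282, 3887 and 3978 in mNrf2-TG. Again no value overlapped, at a Log2FC of 0.37 (SE 0.0677, adjusted p = 0.00626), and both rises were called under all 15 alternatives. Echs1 shares 142 exon bases on the opposite strand with Paox.

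Acadm, Acadl and Acadvl, which act on longer chains, were not called. Acadm, the medium-chain enzyme, ranged from 14912 to 16557 normalized counts in NTG and from 15158 to 16680 in mNrf2-TG (Log2FC 0.04, 95% interval -0.10 to 0.19). Acadl, the long-chain enzyme, ranged from 8794 to 9275 and from 9349 to 10116 (Log2FC 0.10, 95% interval -0.04 to 0.23), and Acadvl, the very-long-chain enzyme, from 8560 to 9375 and from 8901 to 9890 (Log2FC 0.09, 95% interval -0.06 to 0.23). These intervals leave out a rise of the size fitted for Acads. A list of further acyl-CoA dehydrogenase and mitochondrial oxidation genes, 22 in all, had 6 higher and 4 lower (median 0.10). This is 45.5% called, against 17.2% of all genes. Acad12 was the highest of them, with 638, 582, 548 and 504 in NTG and 959, 876 and 884 in mNrf2-TG (Log2FC 0.67, SE 0.088, adjusted p = 0.00122). Etfrf1, which encodes a regulator of the electron transfer flavoprotein, ranged from 651 to 755 and from 965 to 1317 (Log2FC 0.66, adjusted p = 0.00377). In both genes the groups were apart and the call was made under all 15 alternatives. The 4 lower genes were Auh (Log2FC -0.33), Mmaa (-0.32), Hsd17b10 (-0.30) and Acad11 (-0.23), at adjusted p from 0.024 to 0.0368. Their groups did not overlap either, and the calls were made under 9, 9, 9 and 8 of the 15 alternatives.

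Hadha and Hadhb encode the alpha and beta subunits of the trifunctional protein, which carries out the last steps for long chains. Hadha had 16827, 17419, 15915 and 15935 normalized counts in NTG and 14430, 14663 and 14181 in mNrf2-TG. The groups did not overlap (Log2FC -0.20, SE 0.0597, adjusted p = 0.0486), but the value sat at the threshold. The call was lost without NTG 1 (adjusted p = 0.143), NTG 2 (0.143), NTG 4 (0.0608), mNrf2-TG 17 (0.119), mNrf2-TG 18 (0.096) or mNrf2-TG 19 (0.145), with scaling by library total alone (0.0999) and with RLE size factors (0.0505). Hadhb overlapped, at 12326 to 13976 and 12334 to 14446 (Log2FC 0.02, 95% interval -0.15 to 0.18), and the difference between the subunits was not tested. Of the Hadhb transcript, 19.71% of 50-base stretches are shared with other genes, mostly Gm13910. Hadh, the dehydrogenase for shorter hydroxyacyl chains, had 8326, 8615, 7502 and 7793 in NTG against 6903, 6034 and 7025. Every mNrf2-TG heart was below every NTG heart (Log2FC -0.28, SE 0.0778, adjusted p = 0.0367). That call was lost without NTG 1 (adjusted p = 0.109), NTG 2 (0.11), NTG 4 (0.0572), mNrf2-TG 17 (0.0739), mNrf2-TG 18 (0.124) or mNrf2-TG 19 (0.0607), and with the library total alone (0.0736).

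The remaining mitochondrial enzymes were not called. Eci1, an enoyl-CoA isomerase for unsaturated chains, was lower in all 3 mNrf2-TG hearts (2022 to 2273) than in any NTG heart (2425 to 2622), at a Log2FC of -0.20 (adjusted p = 0.0696, and 0.0489 in DESeq2). Its relative Eci2, the reductase gene Decr1 and the thiolase gene Acaa2 overlapped between groups, with Log2FC values of -0.10, 0.08 and -0.09. The 12 enzymes summed to 88813 to 98479 normalized counts in the NTG hearts and 87985 to 95979 in mNrf2-TG, so that the sum of this step overlapped. The 4 uptake genes summed to 95730 to 112688 and 84897 to 90861, without overlap. The 5 Acsl genes summed to 12426 to 12740 and 10153 to 10815, also without overlap. Lpl was the largest part of the uptake sum and Acsl1 held most of the Acsl sum, so these sums largely repeat single called genes. Cd36, Fabp4, Acsl3, Acsl4 and Acsl5 were not called.

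Electrons from the dehydrogenases pass to the flavoprotein of Etfa and Etfb and on to its oxidoreductase, encoded by Etfdh. Etfb had 4937, 5188, 4667 and 4857 normalized counts in NTG and 3941, 3893 and 4657 in mNrf2-TG. The highest mNrf2-TG value lay just under the lowest NTG value (Log2FC -0.24, SE 0.0792, adjusted p = 0.0652). Etfdh ranged from 9301 to 10625 and from 8158 to 9114, also without overlap (Log2FC -0.21, adjusted p = 0.0629). Neither was called in edgeR, both were in DESeq2 (adjusted p = 0.0424 and 0.0425), and both were without NTG 3 (0.0457 and 0.0297). Etfb was also called without mNrf2-TG 19 (0.0293). Of the Etfb transcript, 43.81% of 50-base stretches are shared with Gm45233. Etfa ranged from 5200 to 5899 and from 5409 to 5893 (Log2FC 0.02, 95% interval -0.13 to 0.17).

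Peroxisomes shorten very long and branched chains, and Ehhadh and Acaa1a encode their bifunctional enzyme and thiolase. Ehhadh had 106, 120, 87.7 and 165 normalized counts in NTG and 67.8, 92.6 and 65.4 in mNrf2-TG. The groups overlapped through mNrf2-TG 18 and NTG 3 (Log2FC -0.67, SE 0.22, adjusted p = 0.0633), and the gene was called without NTG 3 (adjusted p = 0.0176) and in DESeq2 (0.0397). Acaa1a ranged from 272 to 328 and from 330 to 340 (Log2FC 0.17, adjusted p = 0.198), and 12.43% of its 50-base stretches are shared with Acaa1b. Of 23 other peroxisomal genes 5 were higher and 0 lower (21.7% called, against 17.2% of all genes, median 0.14). In this list, values did not overlap between the groups for 30.4% on the higher side and 4.35% on the lower side. Over all genes these shares were 15.0% and 14.7%. Acox2, a branched-chain acyl-CoA oxidase, had 6, 5, 1 and 6 counts in NTG and 85, 114 and 121 in mNrf2-TG. All mNrf2-TG hearts were above all NTG hearts (Log2FC 4.48, SE 0.297, adjusted p = 1.48e-05). Acaa1b, the second peroxisomal thiolase, ranged from 52.8 to 63.0 normalized counts and from 92.6 to 105 (Log2FC 0.73, adjusted p = 0.00481), and it shares sequence with Acaa1a as given above.

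Among the 5 regulators, Ppara and Ppargc1a were lower (40.0%, against 8.73% of all genes) and none was higher. Ppara, which encodes the receptor PPARα, had 1699, 1575, 1254 and 1539 normalized counts in NTG and 871, 937 and 984 in mNrf2-TG. The NTG and mNrf2-TG ranges were clear of each other (Log2FC -0.70, SE 0.103, 95% interval -0.93 to -0.47, adjusted p = 0.00225), a fall of 38.6% called under all 15 alternatives. Ppargc1a, which encodes PGC-1α, had 4167, 5955, 7441 and 3296 in NTG and 2947, 2035 and 1293 in mNrf2-TG. It spread widely, with a CV of 35.5% in NTG and 39.6% in mNrf2-TG, yet the highest mNrf2-TG value stayed under the lowest NTG value. The Log2FC was -1.32 (SE 0.312, 95% interval -2.01 to -0.62, adjusted p = 0.0184). The call was lost without mNrf2-TG 18 (adjusted p = 0.0639) or mNrf2-TG 19 (0.0583).

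The other 3 regulators were not called. Ppard, for the related receptor PPARδ, ranged from 328 to 371 normalized counts in NTG and from 324 to 354 in mNrf2-TG (Log2FC -0.05, 95% interval -0.23 to 0.12). Per kilobase, Ppara held 76.4% to 82.3% of the summed level of Ppara and Ppard in NTG and 70.3% to 73.5% in mNrf2-TG, without overlap. Ppargc1b, for the coactivator PGC-1β, ranged from 129 to 182 and from 180 to 197 (Log2FC 0.31, adjusted p = 0.13, and 0.0468 without NTG 4). Esrra, for ERRα, ranged from 841 to 975 and from 780 to 849 (Log2FC -0.15, adjusted p = 0.219). Of 26 partners of PPAR, ERR and PGC-1, 8 were lower (30.8%, against 8.73% of all genes) and 0 higher, with a median Log2FC of -0.30 and 23 values below 0. Among them was Ncor1, for a nuclear receptor corepressor (Log2FC -0.43, adjusted p = 0.00555), called under all 15 alternatives. Klf15, a transcription factor of lipid metabolism in heart, had a Log2FC of -0.60 (adjusted p = 0.0254), and Pparg, for the adipogenic receptor, one of -0.47 (adjusted p = 0.0283). Klf15 and Pparg each lost the call without NTG 1, NTG 2 or any one mNrf2-TG heart, at adjusted p from 0.0543 to 0.101. For Ncor1, Klf15 and Pparg the group ranges did not overlap.

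**Figure D2:**
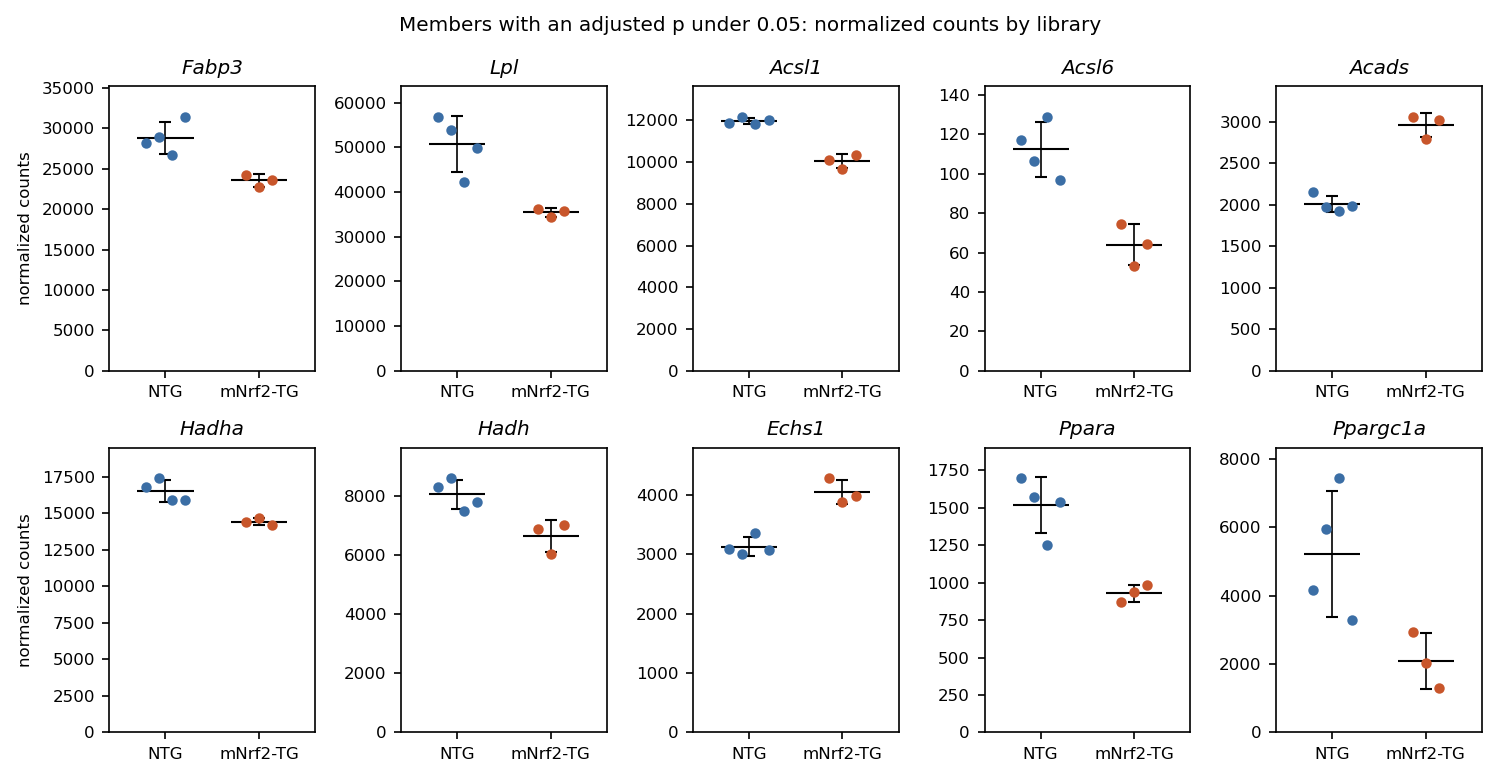
Normalized counts of the 10 called genes in each library, with the group mean (line) and SD (error bar) for 4 NTG (blue) and 3 mNrf2-TG hearts (orange), each axis starting at 0. In all 10 panels the groups do not overlap, and the widest spread is that of Ppargc1a.

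Of 15 clock genes, 2 were called lower (13.3%, against 8.73% of all genes) and 13 were not called. All 15 had a Log2FC below 0, with a median of -0.38 against 0.00 over all genes. Values lay below those of NTG without overlap for 13.3% of them, against 14.7% of all genes. Per1 was among the called genes (Log2FC -0.87, adjusted p = 0.01). The time of tissue collection is not given in the sources used here. Ppara and Ppargc1a are known to follow the time of day, and the part of the clock gene values in these results was not tested. The cardiomyocyte marker sum, with a log2 ratio of group means of -0.21, moved beside them too, and its part was not tested.

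Fuel selection and uncoupling had no called gene among 3. Pdk4, the kinase that holds back pyruvate dehydrogenase when fatty acids are used, had 7408, 9533, 11341 and 11079 normalized counts in NTG and 11967, 13947 and 11038 in mNrf2-TG. Values overlapped (Log2FC 0.32, SE 0.14, adjusted p = 0.141). Ucp2, an uncoupling protein of many tissues, had 432, 476, 427 and 1012 in NTG and 795, 598 and 927 in mNrf2-TG. NTG 4 stood above every other heart. With it the Log2FC was 0.40 (SE 0.29, adjusted p = 0.378), and without it 0.80 (adjusted p = 0.0102). Ucp3, the muscle form, had 414, 461, 226 and 796 in NTG and 253, 336 and 508 in mNrf2-TG, again with NTG 4 highest (Log2FC -0.37, 95% interval -1.17 to 0.43). Ucp2 and Ucp3 could therefore not be placed in a direction at this spread. In the list of pyruvate entry and its kinases, 3 of 12 were lower and 1 higher (33.3% called, against 17.2% of all genes, median -0.04). Lower were Pdhb, a subunit of pyruvate dehydrogenase (Log2FC -0.30, adjusted p = 0.0209, and 0.0505 to 0.0789 without NTG 1, NTG 2 or any one mNrf2-TG heart), Pdk2 and Dld. The kinase gene Pdk2 ranged from 4326 to 4637 normalized counts in NTG and from 3616 to 3832 in mNrf2-TG (Log2FC -0.26, adjusted p = 0.0175). Its call was lost without NTG 1 (adjusted p = 0.0613) or mNrf2-TG 17 (0.0709). Dld had a Log2FC of -0.25 (adjusted p = 0.0215) and was called under 10 of 15 alternatives. The 1 higher gene was Pdk3 (Log2FC 1.06, adjusted p = 0.0446, 8.2 to 22.9 normalized counts in NTG against 25.8 to 37.2). The Pdk3 call was lost without any one of 6 libraries, all but NTG 4, at adjusted p from 0.056 to 0.144.

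Of the members, 6 varied by more than 20% (CV) among the NTG hearts, namely Acsl3, Cpt1a, Ehhadh, Ppargc1a, Ucp2 and Ucp3, with 23.0% to 50.0%. The other 33 varied by 20% or less. The median CV of the 39 was 6.84% in NTG and 5.71% in mNrf2-TG, and 9.55% in NTG over the 9666 genes with at least 50 normalized counts. NTG 3 had the lowest NTG value for 27 of the 39 genes and the highest for 7. Ucp2, Ucp3, Ehhadh and Acsl3 were highest in NTG 4, which was the lowest NTG heart for Ppargc1a.

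**Figure D3:**
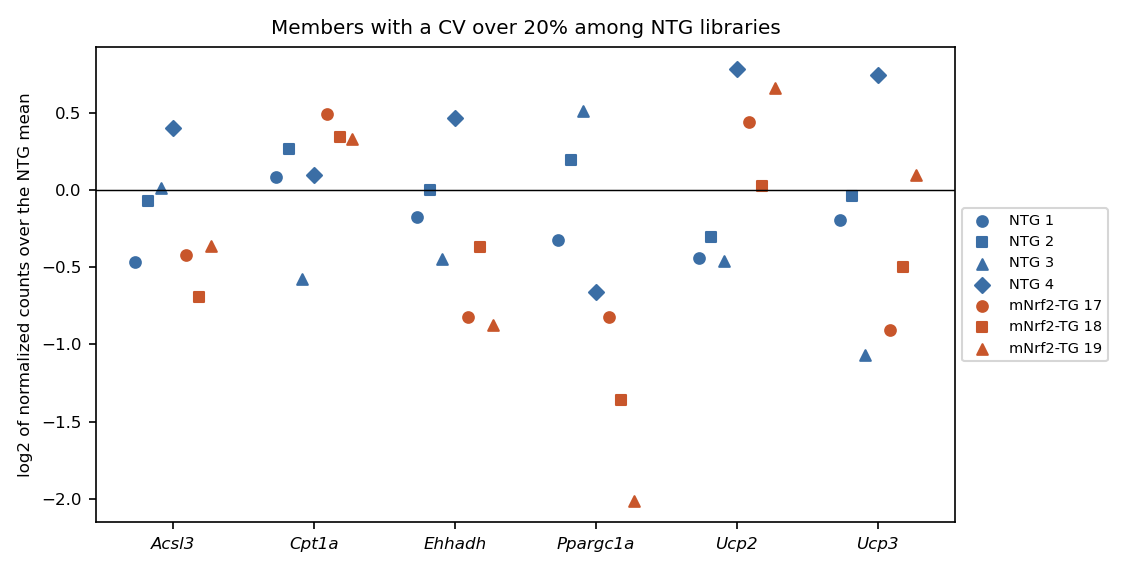
The 6 members with a CV over 20% among NTG libraries, as log2 of the normalized count over the NTG mean, one marker per library. NTG 4 is highest for Acsl3, Ehhadh, Ucp2 and Ucp3, and for Ppargc1a the 3 mNrf2-TG hearts lie below all NTG hearts.

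Among the 29 genes that were not called, the 95% interval of the Log2FC left out 0 for 11. These intervals are not adjusted for the number of genes tested, and the matching share of all genes was not counted. The interval lay within 0.5 of 0 for 21 of the 29. The intervals of the other 8, Fabp4, Acsl3, Cpt1a, Ehhadh, Ppargc1b, Pdk4, Ucp2 and Ucp3, reached beyond 0.5, so differences of that size were not settled for them at this spread.

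Levels between genes were compared as counts per kilobase of the main transcript per 1000000 counts of the TMM-scaled library. Fabp3 was highest in NTG at 4652 ± 318 (SD, n = 4), followed by Lpl at 1638 ± 204, Acadm at 1002 ± 49.2 and Cd36 at 899.7 ± 47.6. The first 3 were each above the next gene in every NTG heart. From Cd36 down to Etfa at 532.2 ± 28.2 no neighbours in the order were apart beyond their spread, and over the whole order 10 of 38 neighbouring pairs were. Acsl3 was lowest at 2.51 ± 0.617, with a 1850-fold span from top to bottom. In mNrf2-TG the first 4 places held the same genes, with Fabp3 at 3801 ± 122 and Lpl at 1144 ± 32.8 (SD, n = 3). The Lpl level, 1366 to 1836 in NTG, came down to 1107 to 1170, next to that of Acadm at 1031 ± 49.5.

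**Figure D4:**
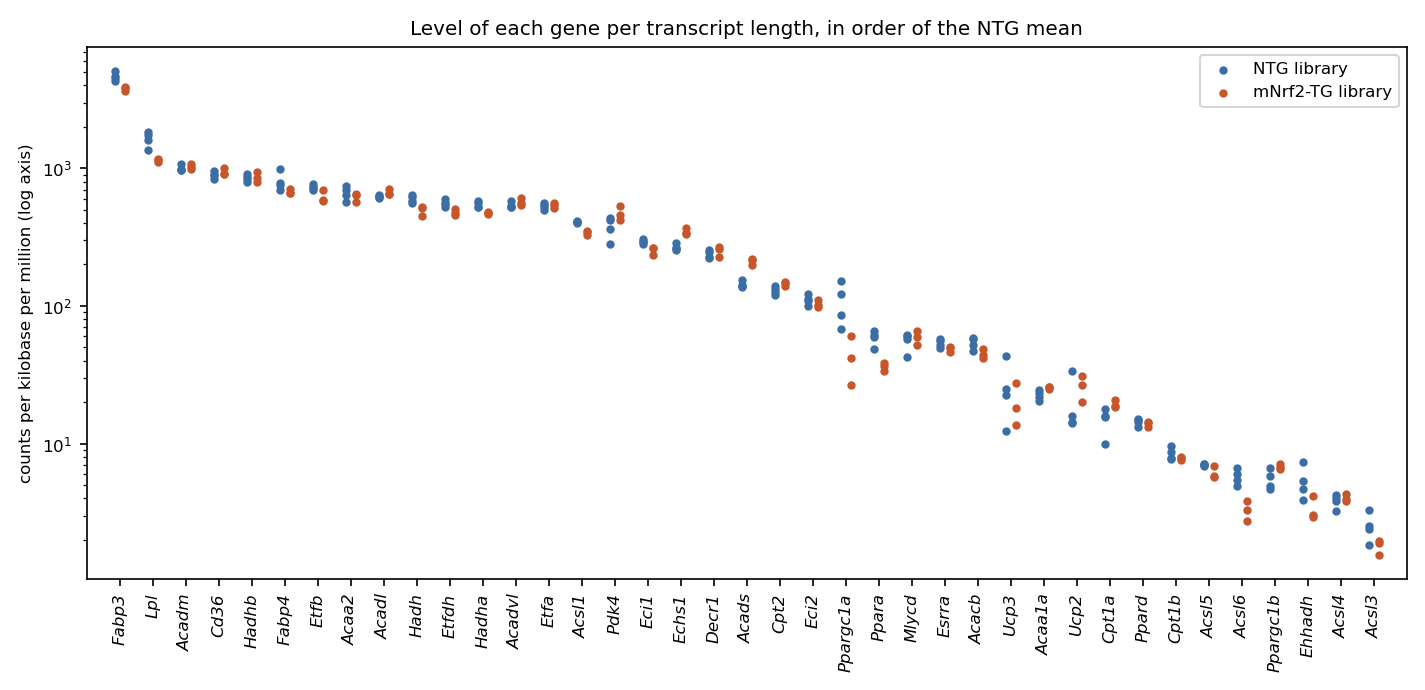
Level of each of the 39 genes as counts per kilobase per 1000000 counts on a log axis, ordered by the NTG mean, one point per library (blue NTG, orange mNrf2-TG). Fabp3 leads in both groups, and the gaps between the colours are small beside the 1850-fold span between genes.

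Genes of triglyceride storage and lipolysis, the other fate of fatty acids in the heart, were lower for 5 of 23 and higher for 1, with a median Log2FC of -0.25. The share called was 26.1%, against 17.2% of all genes. Dgat2, which makes triglyceride from diacylglycerol, had 3887, 3833, 3030 and 2945 normalized counts in NTG and 1503, 2015 and 2143 in mNrf2-TG. Lpin1, a phosphatidate phosphatase and coactivator, had 2807, 3085, 2982 and 2433 against 1748, 1840 and 1826. Both were lower in each mNrf2-TG heart than in any NTG heart, at Log2FC values of -0.86 (SE 0.143, adjusted p = 0.00427) and -0.65 (SE 0.0871, adjusted p = 0.00146), and under all 15 alternatives. Plin5, a lipid droplet coat protein of oxidative tissues, was the 1 higher gene (Log2FC 0.36, adjusted p = 0.0227). Its call was lost without NTG 1, NTG 2, mNrf2-TG 17 or mNrf2-TG 19, at adjusted p from 0.054 to 0.0757. Cideb, the gene with the lowest Log2FC in the list, had 6, 13, 6 and 9 counts in NTG and 3, 1 and 2 in mNrf2-TG (adjusted p = 0.0245, and 0.0571 in DESeq2), and leaving out NTG 2, mNrf2-TG 18 or mNrf2-TG 19 gave adjusted p from 0.0716 to 0.0848.

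Ketone bodies are a further fuel, and 2 of 8 genes of their metabolism were higher and 1 lower (median 0.23). This is 37.5% called, against 17.2% of all genes. Bdh1, the mitochondrial hydroxybutyrate dehydrogenase, had 658, 431, 1212 and 820 normalized counts in NTG and 1653, 1783 and 1323 in mNrf2-TG. All mNrf2-TG hearts were above all NTG hearts (Log2FC 1.02, SE 0.271, adjusted p = 0.0286). The call was lost without NTG 1 (adjusted p = 0.0741), NTG 4 (0.0506), mNrf2-TG 17 (0.0883) or mNrf2-TG 18 (0.091). Of 5 other uncoupling proteins and nucleotide carriers, Slc25a5 was higher (Log2FC 0.36, adjusted p = 0.0174) and Slc25a4, the main adenine nucleotide carrier of heart, lower (Log2FC -0.25, adjusted p = 0.031). In this list 40.0% were called, against 17.2% of all genes. The Slc25a5 call was lost without mNrf2-TG 17 (adjusted p = 0.0735) or mNrf2-TG 18 (0.0547). That of Slc25a4 was lost without NTG 1, NTG 2, NTG 4, mNrf2-TG 17 or mNrf2-TG 18, at adjusted p from 0.069 to 0.106, and with scaling by library total alone (0.0692).

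**Figure D5:**
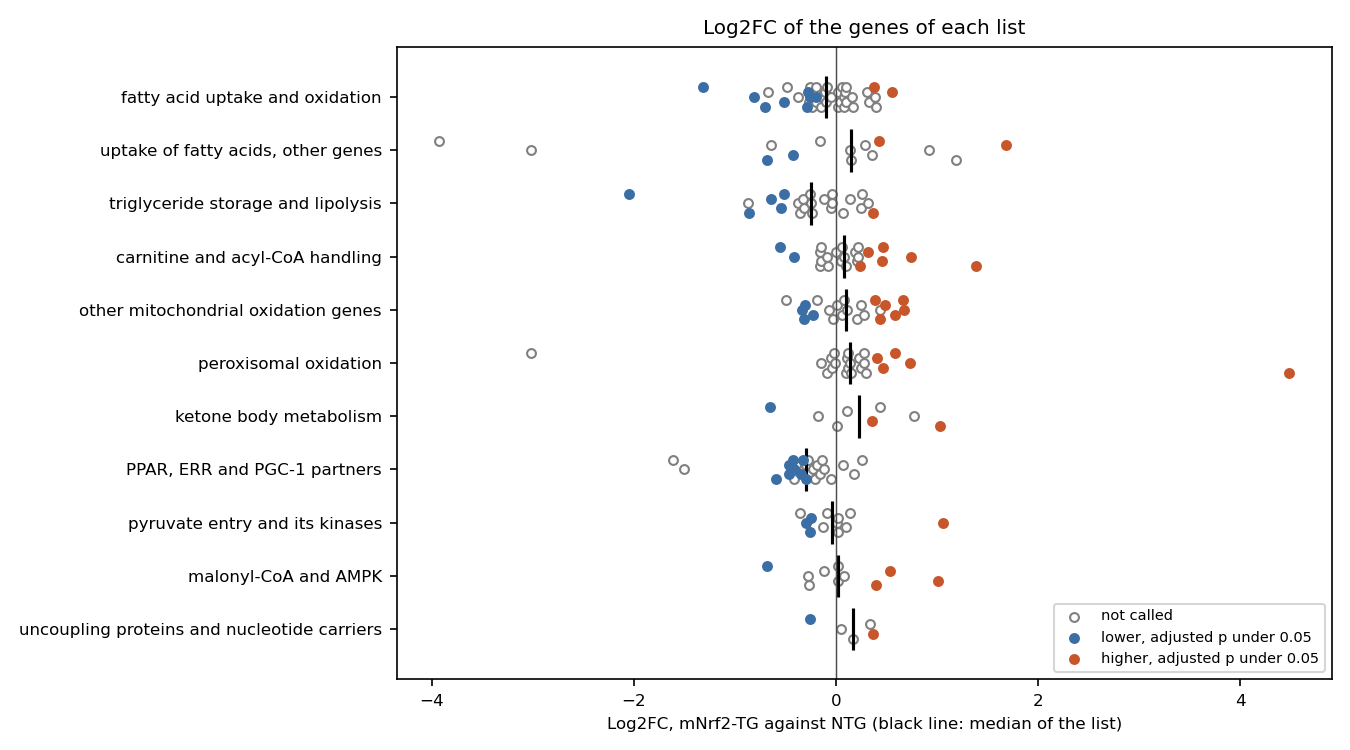
Log2FC of the genes of the 39-gene set and of 10 related lists, with the median of each list as a black line and called genes filled. The medians of the lists lie between -0.30 and 0.23, and Acox2 lies farthest above 0 at 4.48. Farthest below are Fabp7 (-3.93) and Slc27a2 (-3.02), not called and with 13 counts or fewer in every library.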

How the data were processed

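RNA of 7 hearts was selected by poly(A), made into stranded libraries and read singly over 50 bases. The submitters' processing notes name Novoalign 2.08.01 and DESeq2 1.32.0. The methods mention both hg19 and mm10 (GRCm38) as references. The counting program and the use of strand are not given in the sources used here. The count table was deposited by the authors as raw counts per gene without normalization. It has 14665 entries, of which 24 repeats of an Entrez gene were removed. The authors' DESeq2 comparison holds their fold changes, p-values and a signal column (the mean of counts divided by size factors), and only its gene symbols were used. Another table, of rlog values, was not used here.

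Groups came from the genotype labels. The 14637 genes with a summed count above 1 entered a quasi-likelihood fit in edgeR 4.0.16 (R 4.3.3) with TMM factors and no covariate. Adjusted p is that of Benjamini and Hochberg across these genes, the SE is |Log2FC| over the root of F, and p-values measure only the spread between these hearts. Normalized counts are counts scaled by TMM to the mean library size. The scripts were tested on simulated data. Alternatives were RLE size factors, the library total alone, DESeq2 1.42.0, limma-voom (3.58.1), filterByExpr, at least 10 counts throughout one group, no filter, all deposited entries, and leaving out each library in turn. The libraries held 6534684 to 8405857 counts on listed genes. The members and lists were chosen with earlier results of these data known. All members are named, and from each other list at most 4 called genes in each direction by absolute Log2FC, fewer in some lists after their values were seen. Some of these are not reported here. Transcript lengths and overlaps are from GENCODE M21, and promoters from RefSeq (GRCm38.p6). Python 3.11.15 was used for tables and plots.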

Additional observations from a re-analysis of the deposited data

Results flagged for a closer look

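A few values stood apart from the other hearts of their group by Dixon's test, which divides the gap to the nearest heart by the range of the 4 and calls it past the 95% critical ratio. Of 84 genes tested in the 4 NTG hearts, 3 were picked out in this way, where chance picks out about 1 group in 20. Ucp2 had 1011.8 normalized counts in NTG 4, while the other NTG hearts had 426.99 to 476.18 (ratio 0.916). Acadvl had 9375.1 in NTG 2, above 8560.37 to 8624.22 in the others (ratio 0.922), a gap that is small beside the level. Plin3, a lipid droplet protein gene, had 761.15 in NTG 3, below 1066.58 to 1118.52 in the others (ratio 0.855). Plin3 was called lower with all hearts (Log2FC -0.55, adjusted p = 0.0184). The call for Plin3 was lost without NTG 1 (adjusted p = 0.0558), NTG 2 (0.0553) or mNrf2-TG 19 (0.0761).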

How the results depend on the processing

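Over 15 alternatives, 547 of 585 Log2FC values of the 39 genes kept their direction and side of the threshold, 22 lost a call, 11 gained one and 5 changed sign. Acads, Echs1, Acsl6, Ppara and Lpl were called under each alternative. Without each library in turn, the number of genes called higher ranged from 2 to 4 (4 without NTG 4, with Ucp2 and Ppargc1b added) and the number called lower from 3 (without mNrf2-TG 18) to 12 (without NTG 3). It was 5 without NTG 1, NTG 2 or mNrf2-TG 19. These fits have fewer samples. DESeq2 called 12 lower, RLE size factors 7, the library total alone 6 and the other alternatives 8, with 2 higher in each. Sign changes came only from leaving out a library. Hadhb ranged from -0.0476 to 0.0672 (-0.015 without NTG 3), Etfa from -0.0146 to 0.0517 (below 0 also without mNrf2-TG 17) and Mlycd from -0.009 to 0.1829. The library total alone moved the median of all genes by 0.0297. In the 250 bases before the start alone, the antioxidant core was in 10.2% of all promoters and AGGTCA in 14.0%. Among the members, this window leaves out the core of Ppard, which begins at -4 and runs past the start. It also leaves out the AGGTCA of Acacb, which begins at base 44 after the start. No paired analysis was possible because the labels give no link between single hearts of the groups. The smallest called change among the 39 genes was a Log2FC of -0.20, and genes with a count near 47 carry a counting error of 14.6%.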
